A study of Mus musculus with 12 samples.

Results

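The 200 most abundant non-coding RefSeq entries of the hippocampal RNA-seq tables were described. Members were the entries whose RefSeq identifier begins with NR_ and whose mean level over all 12 mice, in counts per 1000000 of a mouse's total (CPM), was highest. They were thus selected on their measured level. They were 200 of 4337 non-coding entries and of 32850 entries in all. The mean level chose the members and is given only as a description: it ran from 8.11 to 4995 CPM with a median of 23.3 CPM. The last entries inside the list were Gm1943 at 8.17 CPM and Gm15446 at 8.11 CPM, and the first outside were 2810032G03Rik at 8.10 CPM and Snhg1, a host of small nucleolar RNAs, at 8.04 CPM.

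All 12 mice were wild-type C57BL/6 males that received bilateral hippocampal injections of an AAV5 vector at 10 weeks of age, with tissue taken 10 weeks later. A human synapsin promoter, active in neurons, drove GFP in every group, and in the sponge groups the GFP transcript also carried imperfect target sites for one microRNA family. The miR-9 experiment held 3 GFP Ctrl mice (numbered 16, 2 and 8) and 3 miR-9sp-injected mice (17, 23 and 9), and the miR-34 experiment held 3 GFP Ctrl mice (10, 4 and 8) and 3 miR-34sp-injected mice (13, 18 and 3). RNA was extracted from the whole hippocampus, so that neurons reached by the vector, other neurons and glia were all measured, and fewer cells of a type and less RNA per cell cannot be told apart.

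Long non-coding RNAs (lncRNAs) are transcribed and often spliced and polyadenylated like messenger RNAs but encode no known protein. Many stay in the nucleus, where some build nuclear bodies or silence neighbouring genes, and others are cut up to release microRNAs or small nucleolar RNAs (snoRNAs) from their introns and exons. Small structural RNAs such as snoRNAs, spliceosomal RNAs and 7SK mostly lack a poly(A) tail, and processed pseudogenes are copies of messenger RNAs whose sequence can be close to that of the parent gene.

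Members were classed by gene symbol and by the gene types of the reference table. They comprised 105 lncRNAs, 54 pseudogenes, 11 non-coding entries of genes that also have coding entries and 4 microRNA hairpins. A further 26 entries had no gene symbol and are called by their identifier here. The lncRNA class took every entry with a symbol that matched no other class, without a check that its gene type was lncRNA. None of the 140 entries classed as small structural RNA and not the 1 entry classed as ribosomal RNA reached the list. The 26 entries with no symbol, NR_046233 among them, could not be placed in any class. Ribosomal or structural RNA among those entries would therefore not be seen here. The median length of the small structural entries was 82.5 bases against 2494 bases for members, and 116 of the 140 had at least 1 count but only 3 exceeded a mean of 1 CPM. The highest was AF357359, a snoRNA lying inside the lncRNA Rian, at 6.66 CPM, followed by the snoRNA Snord91a at 4.46 CPM and Snord104 at 1.14 CPM. The AF357359 entry is 30 bases long, shorter than the reads of 50 bases, so that its counts cannot be told apart from RNA of Rian. The small structural entries summed to 36.6 to 40.5 CPM in the mice of the miR-9 experiment and to 26.9 to 35.02 CPM in those of the miR-34 experiment. The ranges did not overlap, with the miR-9 experiment higher. Of 12 such entries tested between the GFP Ctrl groups of the experiments, 0 were called higher and 0 lower (edgeR), against 10.7% and 13.7% of all entries. At an unadjusted p under 0.05, 2 were higher and 1 lower. The median SE of the 12 log2 differences was 0.36, against 0.08 over all entries tested, so that small differences would not be called. The mean sum over 12 mice, 34.5 CPM, was below the mean level of the single lncRNA Dlx6os1, the antisense neighbour of a homeobox gene (38.8 CPM).

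The 105 lncRNAs included the transcripts best known from brain. Norad, a cytoplasmic lncRNA that binds Pumilio proteins, averaged 2114 CPM, Malat1, a nuclear speckle RNA, 1219 CPM, the imprinted Rian 643 CPM and the imprinted Peg13 514 CPM. The first place of Norad rested on the miR-34 experiment: in GFP Ctrl mice of the miR-9 experiment Malat1 averaged 1206 CPM and Norad 1151 CPM, with overlapping mice. Per kilobase of transcript the level of Norad was 429.9 CPM, that of Rian 179.5 CPM and that of Malat1 174.5 CPM. By mean CPM the next entries put in the lncRNA class were Rnf227 (165 CPM) and Mir124a-1hg, the host of a miR-124 hairpin (161 CPM). As for the whole class, Rnf227 was not checked to have the gene type lncRNA. Then came 4933431E20Rik (149 CPM), 9530082P21Rik (148 CPM), the paraspeckle RNA Neat1 (138 CPM) and the longer of 2 Meg3 entries (132 CPM). The first 10 members together took 62.8% of the reads of all members.

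Of the 105 lncRNAs, 14 contained annotated microRNA hairpins and 7 contained snoRNAs within their bounds, whereas none of the 54 pseudogenes contained either. Mirg held 10 hairpins, Rian 3 hairpins and 11 snoRNAs, Mir100hg 3 hairpins and Snhg12 4 snoRNAs. The mature sequences below (RefSeq, GRCm38.p6) are shown because the first 2 are the targets of the sponges, the next 3 belong to member hairpins and the last 5 lie in member hosts that are described further on. Capitals mark the seed, bases 2 to 8.
mmu-miR-9-5p: uCUUUGGUuaucuagcuguauga
mmu-miR-34a-5p: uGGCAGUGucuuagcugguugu
mmu-miR-682: cUGCAGUCacagugaagucug
mmu-miR-703: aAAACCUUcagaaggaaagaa
mmu-miR-6236: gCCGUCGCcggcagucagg
mmu-miR-29b-3p: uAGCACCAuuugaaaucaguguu
mmu-miR-29c-3p: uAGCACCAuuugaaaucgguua
mmu-miR-22-3p: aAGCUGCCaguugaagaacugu
mmu-miR-154-5p: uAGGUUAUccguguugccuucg
mmu-miR-410-3p: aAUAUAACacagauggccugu
The 2 miR-29 sequences, both from hairpins in A330023F24Rik, share their seed, and none of the other sequences shown shares one.

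The 4 member hairpin entries were Mir6236 (123 bases, 121 CPM), Mir684-1 (766 bases, 72.0 CPM), Mir682 (96 bases, 38.5 CPM) and Mir703 (109 bases, 13.6 CPM). Reads of 50 bases from poly(A)-enriched RNA do not count mature microRNAs, so that these levels are levels of RNA over the annotated entry. For Mir684-1 that entry, at 766 bases, is much longer than the others. Of all 1101 hairpin entries, 13 exceeded a mean of 1 CPM.

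To place the sponge comparisons, target octamers were searched on the transcript strand of the 59 member lncRNAs that had a transcript of matching length in the NCBIM37 annotation. The octamer ACCAAAGA pairs with the miR-9 seed and ends in an A opposite base 1, and CACTGCCA does so for miR-34. Each was found in 4 of the 59 members (6.78%), against 13 of 179 (7.26%) less abundant lncRNAs with a mean above 1 CPM. The 8 sites are shown with the octamer in capitals, since a transcript holding one could be read directly against its own sponge.
Sox2ot, miR-9, chr3:34576073-34576102, plus strand: atgatatctagACCAAAGAcacagttttta
2310015A10Rik, miR-9, chr12:81222534-81222563, minus strand: aatctgaagtgACCAAAGAcaaccagcaag
Gm15663, miR-9, chr10:105012421-105012450, plus strand: aaagttgcatgACCAAAGAgatccgagagc
1700113A16Rik, miR-9, chr3:87976018-87976047, minus strand: ttcctcgccgcACCAAAGAaatcaaaaccc
Cep83os, miR-34, chr10:94138392-94138421, minus strand: agctcagttacCACTGCCAagatgggaaat
4933404O12Rik, miR-34, chr5:137412546-137412575, plus strand: cctcacttgtgCACTGCCAtggccgtccgt
Dubr, miR-34, chr16:50720167-50720196, minus strand: taggggtctcaCACTGCCAtatacagtcat
Gm10516, miR-34, chr1:193973408-193973437, plus strand: acacaactaaaCACTGCCAccagaatgact

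The label of the non-coding entries of coding genes did not hold for most of them. For 7 of the 11 (Atp2a2, Zfp207, Rbmx, Clk1, Cbarp, Adarb2 and Bmp1) every coding entry of the same symbol had a count of 0 in all 12 mice. Atp2a2, which encodes a calcium pump of the endoplasmic reticulum, had 113 ± 3.11 CPM (SD, n = 3) on its non-coding entry in GFP Ctrl mice of the miR-9 experiment and no count on its 2 coding entries. Across the tables, 493 of 1400 symbols with 2 or more entries and a level above 1 CPM had all their counts on a single entry (35.2%). Counts on these 7 entries therefore cannot be told apart from counts of the whole gene. In GFP Ctrl mice of the miR-9 experiment the Srsf7 entry took 98.9% ± 0.416 (SD, n = 3) of the counts of its gene, nearly all of them. The Sfpq entry took 9.42% ± 0.677 (SD, n = 3) of the counts of its gene in the same mice.

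Total counts per mouse were 17279620 to 24428477 (miR-9 experiment) and 11029604 to 16934133 (miR-34 experiment), and 3 counts, taken as the floor, corresponded to at most 0.272 CPM. Of all counts, members took 1.54% to 2.57% (miR-9 experiment) and 1.83% to 2.04% (miR-34 experiment). Without NR_046233, a 5833-base entry with no symbol, they took 1.06% to 1.11% and 1.69% to 1.87%. Excitatory neuron markers of the hippocampus summed to 2349 to 2824 CPM in every mouse, while choroid plexus markers summed to 60.9 to 917 CPM in the miR-9 experiment, to 665 to 2426 CPM in GFP Ctrl mice of the miR-34 experiment and to 80.4 to 162 CPM in miR-34sp-injected mice.

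GFP Ctrl mice were then compared between the experiments, since the vector was the same in both. Of the 200 members, 39 were higher and 62 lower in the miR-9 experiment than in the miR-34 experiment (edgeR quasi-likelihood test, adjusted p under 0.05, n = 3 and 3), against 10.7% higher and 13.7% lower of all 13220 entries tested. The classes differed in direction. Among the lncRNAs, 27 of 105 were higher and 9 lower with a median log2 difference of 0.01, among the pseudogenes 2 of 54 were higher and 42 lower with a median of -1.04, among the non-coding entries of coding genes 7 of 11 were higher and 0 lower with a median of 0.44, and of the 4 hairpins 3 were lower. The median over all entries tested was -0.0016. Mice of the 2 experiments also differed in their labels, since file headers of the miR-9 experiment alone carry the word totRNA, and injection, RNA preparation and sequencing of the experiments cannot be told apart. When counts were scaled by totals only, 50 members were higher and 54 lower, and the median of all entries moved to 0.06.

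**Figure D1:**
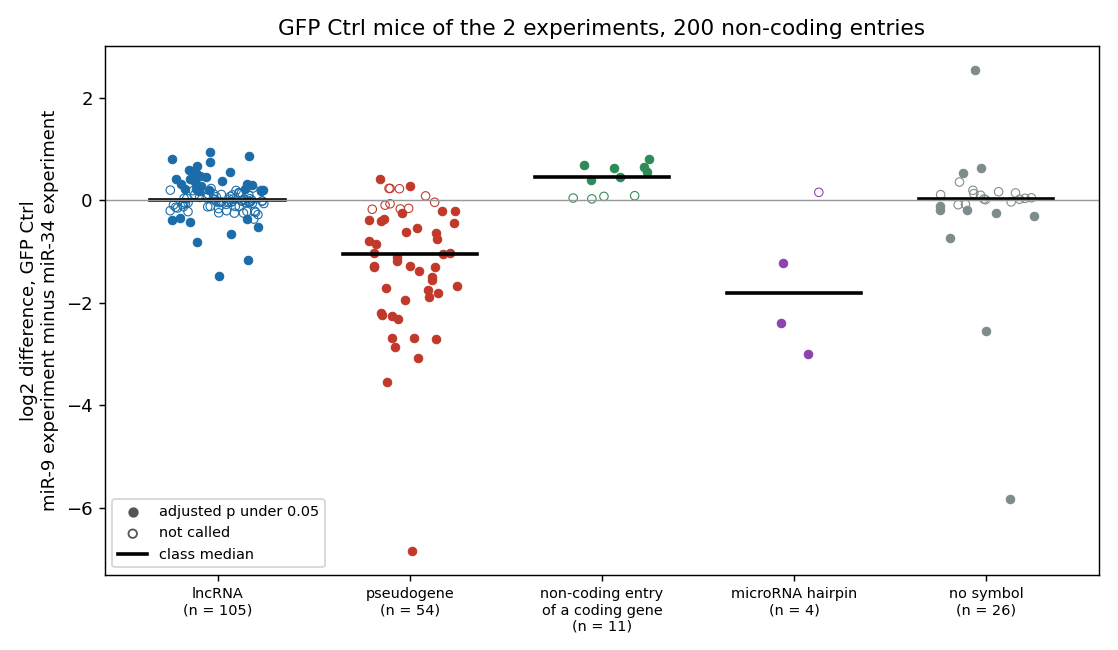
Log2 difference between GFP Ctrl mice of the miR-9 and the miR-34 experiment (vertical axis) for each of the 200 members, by class. Filled points had an adjusted p under 0.05, open points did not, and black bars are class medians: the pseudogene median lies at -1.04 and the lncRNA median at 0.01.

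Because a member could enter the list through its level in 1 experiment, both lists were also ranked separately. In all, 184 of the 200 members were among the first 200 in each experiment on its own, and among these 36 of 46 pseudogenes were lower and 1 higher, and 25 of 101 lncRNAs were higher and 8 lower. Of 73 other pseudogene entries tested, which were too low for the list, 41 were lower and 0 higher in the miR-9 experiment, and 66 such entries passed the filter on low counts among the mice of that experiment alone. The mice given sponges were a separate set, and between them 56 of the 62 lower members were again called lower and 15 of the 39 higher members again called higher, where 12.2% and 8.07% of all 13111 entries were called. All 6 mice of the miR-9 experiment lay below all 6 of the miR-34 experiment for 53 members, 39 of them pseudogenes, and above them for 22 members, where 9.26% and 12.9% of all entries did so.

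Many of the larger differences were in pseudogenes. Ubb-ps, a copy of a polyubiquitin gene, had 302, 303 and 303 CPM in GFP Ctrl mice of the miR-9 experiment and 2186, 2074 and 2061 CPM in those of the miR-34 experiment. The mice within each group were nearly equal and the groups lay far apart, at a log2 difference of -2.86 ± 0.04 (SE, adjusted p = 2.92e-12, edgeR). E030024N20Rik had 22.8, 28.2 and 24.4 CPM against 279, 281 and 282 CPM (log2 difference -3.54), and 2610005L07Rik had 13.5, 12.6 and 13.2 CPM against 109, 106 and 104 CPM (log2 difference -3.08). Neither pair of groups overlapped. Gm7977 was counted 6, 4 and 6 times in the miR-9 experiment and 372, 316 and 327 times in the shallower miR-34 experiment, a mean of 0.249 CPM against 27.9 CPM. It entered the list only through its level in the miR-34 experiment. Across pseudogenes, 29 of 54 differed by more than 1 on the log2 scale, and the only ones called higher in the miR-9 experiment were Slc2a4rg-ps (log2 difference 0.41) and A930017M01Rik (0.28). DESeq2 called 0 pseudogenes higher, and the count of 2 fell to 0 without GFP Ctrl mouse 16 or mouse 8 of the miR-9 experiment or mouse 8 of the miR-34 experiment.

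For 13 member pseudogenes whose symbol names a parent gene with a coding entry, the parent was set beside the copy. Of these 13 pseudogenes 12 were called lower in the miR-9 experiment, and of their 11 distinct parents 10 were called lower too (edgeR, entries of a symbol summed). Ubb had 306 ± 5.21 CPM against 1817 ± 45.8 CPM (SD, n = 3 and 3), a log2 difference of -2.63 beside -2.86 for Ubb-ps, and Ubb-ps took 49.7% and 53.7% of the counts of the pair. Ptma, which encodes the small acidic nuclear protein prothymosin alpha, had a log2 difference of -2.22 beside -1.95 for Ptma-ps2. The pairs did not all move to the same extent: Rps15a, a ribosomal protein gene, differed by -0.47, whereas its copies Rps15a-ps6 and Rps15a-ps4 differed by -2.71 and -2.23. Morf4l1, a chromatin protein gene, was at 5.32 and 4.05 CPM and did not pass the test (log2 difference 0.33), while Morf4l1-ps1 was at 105 and 649.9 CPM and took 95.2% and 99.4% of the counts of the pair. How reads that match a gene and its copy were assigned is not given in the sources used here, so counts of a pseudogene and of its parent are uncertain one by one.

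**Figure D2:**
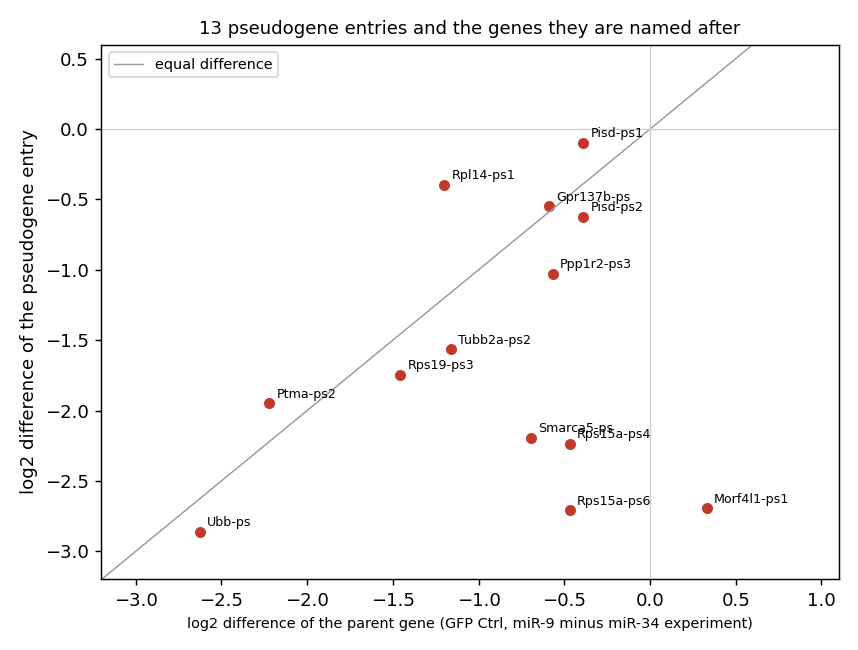
Log2 difference between GFP Ctrl mice of the miR-9 and the miR-34 experiment for 13 pseudogene entries (vertical axis) and for the parent gene they are named after (horizontal axis), with the line of equal difference. Ubb-ps and Ptma-ps2 lie near the line, and Morf4l1-ps1 lies at -2.69 with its parent at 0.33.

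Of the 4 hairpin entries, 3 were lower in the miR-9 experiment, as most pseudogenes were. Mir682 had 8.76, 8.90 and 8.68 CPM in GFP Ctrl mice of the miR-9 experiment and 67.4, 69.8 and 66.6 CPM in those of the miR-34 experiment (log2 difference -3.01). Mir684-1 differed by -2.39 and Mir703 by -1.23, with no overlap between the groups. Mir6236 had 174, 77.7 and 113 CPM against 126, 99.6 and 88.7 CPM, overlapped between the groups and did not pass the test (log2 difference 0.15).

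Among lncRNAs, Norad had the largest difference towards a lower level in the miR-9 experiment. It had 1116, 1158 and 1179 CPM in GFP Ctrl mice of the miR-9 experiment and 3159, 3087 and 3024 CPM in GFP Ctrl mice of the miR-34 experiment, a log2 difference of -1.48 ± 0.04 (SE, adjusted p = 2.54e-10, edgeR). The groups did not overlap, and neither did the 2 experiments when all 6 mice of each were taken. Gm14403 (log2 difference -1.17) was the only other member lncRNA that differed by more than 1 on this scale. The abundant Peg13 and 9530082P21Rik were both higher in the miR-9 experiment by 0.19, Rnf227 and 4933431E20Rik did not pass the test, and Kcnq1ot1 differed by -0.52 with overlapping groups and was called in 8 of 15 alternatives.

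Hosts of microRNAs and imprinted transcripts were among the lncRNAs that were higher in the miR-9 experiment. Mir124a-1hg had 193, 213 and 218 CPM against 112, 115 and 83.1 CPM, a log2 difference of 0.95 ± 0.10 (SE, adjusted p = 5.55e-05, edgeR). Meg3 and Mirg belong to the maternally expressed cluster on chromosome 12: the longer Meg3 entry had 157, 170 and 158 CPM against 92.6, 95.0 and 77.7 CPM (log2 difference 0.81), the shorter differed by 0.58 and Mirg by 0.86. Rian, the third transcript of the cluster, had 641, 604 and 612 CPM against 700.3, 658 and 587 CPM, overlapped between the groups and did not pass the test (log2 difference -0.13). A330023F24Rik, the host of the 2 miR-29 hairpins shown above, differed by 0.67. Mir22hg, the host of miR-22, had 32.2, 31.8 and 34.1 CPM against 33.1, 31.7 and 32.4 CPM and did not pass the test (log2 difference -0.05).

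The nuclear body RNAs were higher in the miR-9 experiment by smaller amounts. Neat1 had 155, 142 and 169 CPM against 109, 131 and 107 CPM (log2 difference 0.37 ± 0.08, SE). Malat1 had 1349.7, 1109.9 and 1157 CPM against 982, 1058 and 965 CPM, and its log2 difference of 0.21 ± 0.07 (SE, adjusted p = 0.0485, edgeR) passed the test in 7 of 15 alternatives. Ftx, a lncRNA next to the X inactivation centre, differed by 0.30 (called in 12 of 15 alternatives), Dlx6os1 by 0.22 (10 of 15) and Tug1 by 0.55. Of the 6 members with a Snhg symbol, Snhg20 was higher (log2 difference 0.47, called in 11 of 15 alternatives). Snhg20 held 1 annotated microRNA hairpin and no snoRNA within its bounds. The other Snhg members did not pass the test, with Snhg12 at 19.4, 19.2 and 17.9 CPM against 18.0, 20.04 and 21.1 CPM. Without GFP Ctrl mouse 16 of the miR-9 experiment, 17 instead of 27 lncRNAs were called higher.

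The non-coding entries of coding genes that were higher were those of Sfpq, Srsf7, Bmp1, Clk1, Rbmx, Iqsec3 and Zfp207. For Bmp1, Clk1, Rbmx and Zfp207, whose coding entries had no counts, these differences cannot be told apart from differences of the whole gene. Nor can they for Srsf7, whose non-coding entry took 98.9% and 99.6% of its gene's counts in GFP Ctrl mice of the miR-9 and miR-34 experiments. Sfpq encodes a paraspeckle and splicing protein, Srsf7 a splicing factor and Clk1 a kinase of splicing factors. The Sfpq entry had 9.09, 11.8 and 9.42 CPM against 5.86, 5.53 and 5.27 CPM (log2 difference 0.80), and the coding entry of Sfpq differed by 0.22 and was called higher too. Srsf7 had 12.7, 14.3 and 14.6 CPM against 8.49, 9.88 and 6.54 CPM (log2 difference 0.68), and neither entry overlapped between the groups. Of 8 tested entries of paraspeckle and splicing proteins outside the list, 4 were called higher and 1 lower, against 10.7% and 13.7% of all entries tested. Their median log2 difference was 0.17, and the list as a set was not tested.

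Entries with no symbol included the member with the largest positive difference and, after Gm7977, the one with the largest negative difference. NR_046233 had 14593, 4741 and 6459 CPM in GFP Ctrl mice of the miR-9 experiment and 1395, 1485 and 1375 CPM in those of the miR-34 experiment. The spread in the miR-9 experiment was wide, with mouse 16 far above the other two, yet the groups did not overlap (log2 difference 2.54 ± 0.33, SE, adjusted p = 2.82e-04, edgeR). Without mouse 16 the log2 difference was 1.92 and was still called. NR_028042, a 372-base entry, was at 1.92, 2.75 and 1.84 CPM against 117, 122 and 120 CPM (log2 difference -5.84), and NR_033599 at 143, 146 and 136 CPM against 793, 780 and 807 CPM (log2 difference -2.54).

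Some other lists of RNAs differed between the GFP Ctrl groups as well. The counts below stand beside 10.7% called higher and 13.7% called lower of all 13220 entries tested. Replication-dependent histone messenger RNAs, which end in a stem-loop in place of a poly(A) tail, summed to 88.6 to 93.6 CPM in GFP Ctrl mice of the miR-9 experiment and to 155 to 171 CPM in those of the miR-34 experiment over all 70 entries. Of 26 entries tested 22 were lower and 0 higher in the miR-9 experiment, but only 13 passed the filter on low counts among the mice of that experiment, so that others were tested through the group where they were high. Proteins bound to structural RNAs were lower for 12 of 27 entries and higher for 0. Choroid plexus markers were lower for 7 of 10 entries and higher for 0. Markers of excitatory neurons (1 higher and 2 lower of 8), microglia (2 and 1 of 6), oligodendrocytes (0 and 0 of 6), thalamus and habenula (0 and 0 of 4) and striatum (1 and 0 of 6) were called in the numbers given, and the part of any of these in the differences of the members was not tested.

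**Figure D3:**
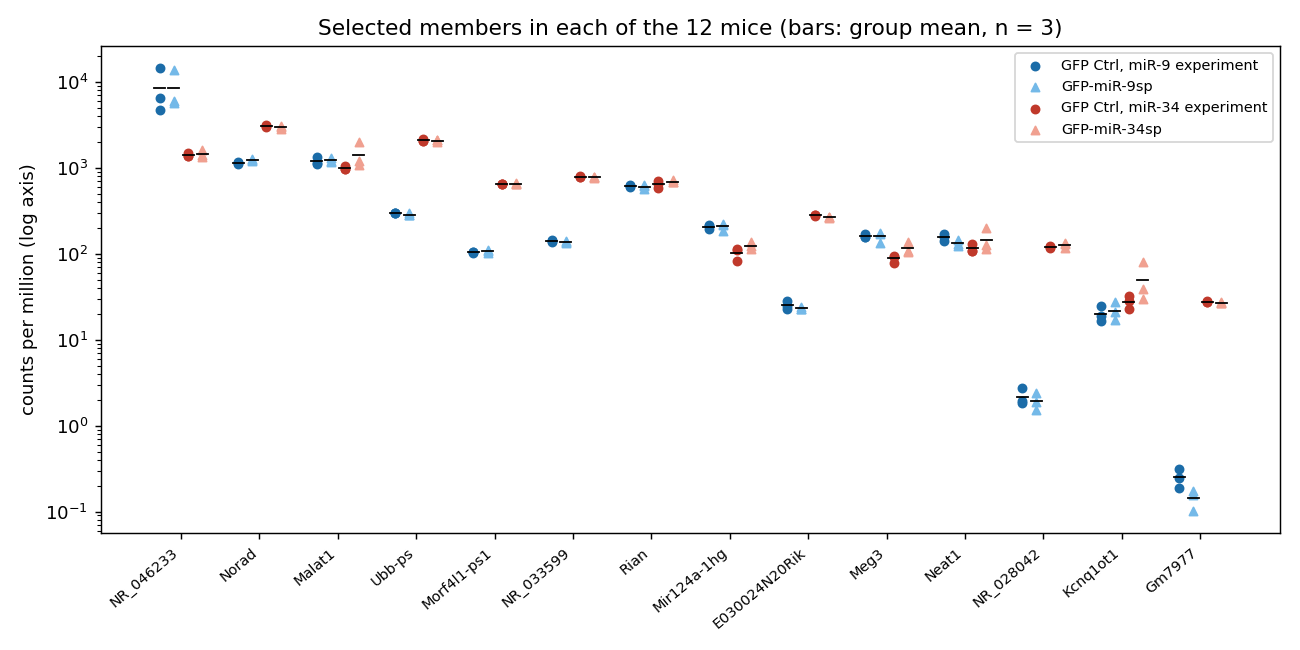
Level of 14 members in CPM (log axis) in each of the 12 mice, with circles for GFP Ctrl mice, triangles for sponge mice and bars for group means (n = 3). Norad, Ubb-ps, Morf4l1-ps1, NR_033599, E030024N20Rik, NR_028042 and Gm7977 lie higher in both groups of the miR-34 experiment, and NR_046233 lies higher in both groups of the miR-9 experiment. NR_028042 and Gm7977 entered the list only through their level in the miR-34 experiment.

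Over all members, the median spread between mice of a group was close to what counting error gives, but not in every class. The coefficient of variation (CV, the SD of the CPM over its mean) had a group median of 5.36% to 6.25% over the members, where counting error alone would give a median of 4.97% to 5.95%. Entries with a mean count above 100, a limit that every member passed, had group medians of 4.04% to 5.005%. Counting error alone would give these entries a lower median than the members, 3.24% to 4.34%. By class, the group medians were 5.20% to 7.09% for lncRNAs, 4.23% to 5.24% for pseudogenes 8.86% to 12.1% for non-coding entries of coding genes and 4.40% to 11.1% for the 4 hairpins. Counting error alone would give 5.76% to 8.37% for the non-coding entries of coding genes. For the hairpins the excess was seen mainly in the miR-34 experiment. There counting error would give 3.13% against the 11.1% measured in GFP Ctrl mice, and 2.96% against 7.78% in miR-34sp-injected mice. In the miR-9 experiment it would give 5.86% against 4.40% in GFP Ctrl mice and 6.17% against 7.91% in miR-9sp-injected mice. 4933431E20Rik had the lowest median CV, 1.22%, with 144 to 154 CPM in all 12 mice, and Morf4l1-ps1 followed with 1.32%.

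A few members varied far beyond counting error. NR_046233 had the highest median CV, 32.2%, and in the miR-9 experiment 1 mouse of each group stood apart: GFP Ctrl mouse 16 at 14593 CPM and miR-9sp mouse 9 at 13769 CPM, with the other 4 mice at 4741 to 6459 CPM. The pseudogene Pisd-ps1, a copy of a mitochondrial phospholipid enzyme gene, had a median CV of 22.7% and ran from 157 CPM (miR-9sp mouse 23) to 360.4 CPM (miR-34sp mouse 3). Kcnq1ot1, a nuclear lncRNA of 83437 bases that silences an imprinted region, had a median CV of 22.8%. In the miR-34sp-injected mice it was at 30.1, 38.5 and 80.6 CPM.

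That last mouse, miR-34sp mouse 3, was also the highest of its group for Malat1 (1207, 1099 and 1986 CPM), Neat1 (125, 114 and 198 CPM) and the longer Meg3 entry (108, 104 and 136 CPM). Malat1 and Neat1 of this mouse exceeded those of all other 11 mice. GFP Ctrl mouse 8 of the miR-34 experiment stood apart the other way: 17 members lay below 0.8 times the mean of the other 2 mice of its group (Meg3, Mirg and Mir124a-1hg among them). In miR-9sp mouse 23, 14 members lay below 0.8 times, A330023F24Rik and Mirg among them.

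**Figure D4:**
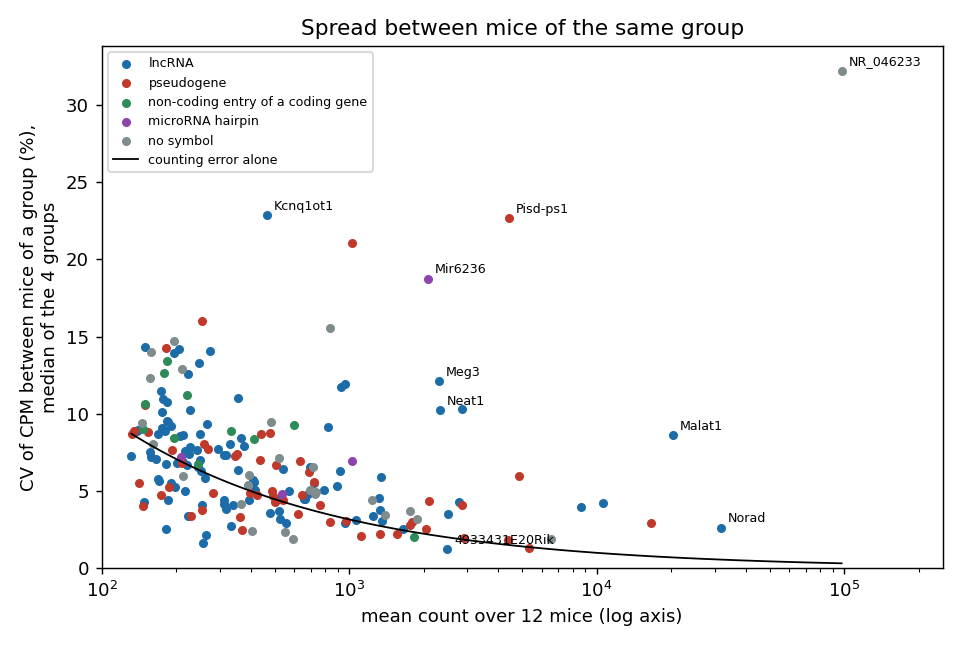
Median over the 4 groups of the CV between mice (vertical axis, %) against the mean count over 12 mice (log axis) for each member, coloured by class, with the CV that counting error alone would give as a line. The points fall with the count as the line does, and NR_046233, Kcnq1ot1 and Pisd-ps1 lie at 32.2%, 22.8% and 22.7%.

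Each sponge group was then compared with its own GFP Ctrl group, to ask whether inhibition of miR-9 or miR-34 in neurons changed these RNAs. For miR-9sp, 0 of 199 members tested were called (edgeR, adjusted p under 0.05), as were 0 of all 13428 entries (0%). DESeq2 also called 0 members. At an unadjusted p under 0.05, 7 members were higher and 6 lower, against 2.45% and 2.23% of all entries. The groups did not overlap for 9 members higher and 14 lower, against 3.29% and 7.8% of all entries. The study's own criterion (an unadjusted p under 0.05 and a 1.2-fold change) passed 1 member, against 1.49% of entries. The median absolute log2 difference of the members was 0.06, below the median SE of 0.08.

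The members with the smallest p in the miR-9sp comparison were NR_045098, Mir703 and Norad. NR_045098 had 80.7, 86.1 and 77.2 CPM in miR-9sp-injected mice and 70.3, 73.9 and 74.8 CPM in GFP Ctrl mice (log2 difference 0.18, adjusted p = 0.969, edgeR). Norad had 1225, 1264 and 1205 CPM against 1116, 1158 and 1179 CPM (log2 difference 0.12, adjusted p = 0.969, edgeR). The groups did not overlap for either. Mir703 had 8.98, 9.09 and 10.8 CPM against 8.27, 7.64 and 7.79 CPM (log2 difference 0.30, adjusted p = 0.969, edgeR). NR_046233 was at 5685, 6040.2 and 13769 CPM against 14593, 4741 and 6459 CPM, with overlapping groups and a log2 difference of 0.00.

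For miR-34sp, 0 of 200 members were called, against 8 of 12762 entries (0.0627%), all of them lower (edgeR). DESeq2 called 1 member, the longer Meg3 entry, as higher, edgeR without a filter on low counts called 8 members, all higher, and the study's criterion passed 6, all higher, against 2.02% of entries. At an unadjusted p under 0.05, 21 members were higher and 2 lower, against 2.77% and 3.61% of all entries, and 15 of the 21 were lncRNAs. The groups did not overlap for 35 members higher and 3 lower in miR-34sp-injected mice, against 6.21% and 5.41% of all entries. Without miR-34sp mouse 3, 15 members were higher and 2 lower at the same unadjusted limit.

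The smallest p in the miR-34sp comparison was that of the non-coding Sfpq entry, which had 8.74, 7.90 and 8.32 CPM in miR-34sp-injected mice and 5.86, 5.53 and 5.27 CPM in GFP Ctrl mice (log2 difference 0.58, adjusted p = 0.214, edgeR). Its share of the counts of Sfpq was 8.94% ± 0.185 against 6.51% ± 0.317 (SD, n = 3 and 3). The longer Meg3 entry had 108, 104 and 136 CPM against 92.6, 95.0 and 77.7 CPM (log2 difference 0.39, adjusted p = 0.354, edgeR). 4933439C10Rik had 14.6, 15.0 and 15.0 CPM against 11.7, 11.6 and 11.4 CPM (log2 difference 0.36, adjusted p = 0.363, edgeR). None of these 3 overlapped between the groups.

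The size of the differences of 3 nuclear RNAs rested in large part on 1 mouse. Malat1 had a log2 difference of 0.51 in the miR-34sp comparison (adjusted p = 0.574, edgeR) and of 0.21 without miR-34sp mouse 3, Kcnq1ot1 0.83 and 0.30, and Neat1 0.33 and 0.06. The unadjusted p with and without that mouse was 0.0090 and 0.0019 for Malat1 (edgeR). It was 0.016 and 0.059 for Kcnq1ot1, and 0.063 and 0.49 for Neat1 (edgeR). Choroid plexus markers, whose sums are given above, did not overlap between the same groups, with 3 of 10 entries called lower, and their part in the values of the members was not tested.

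**Figure D5:**
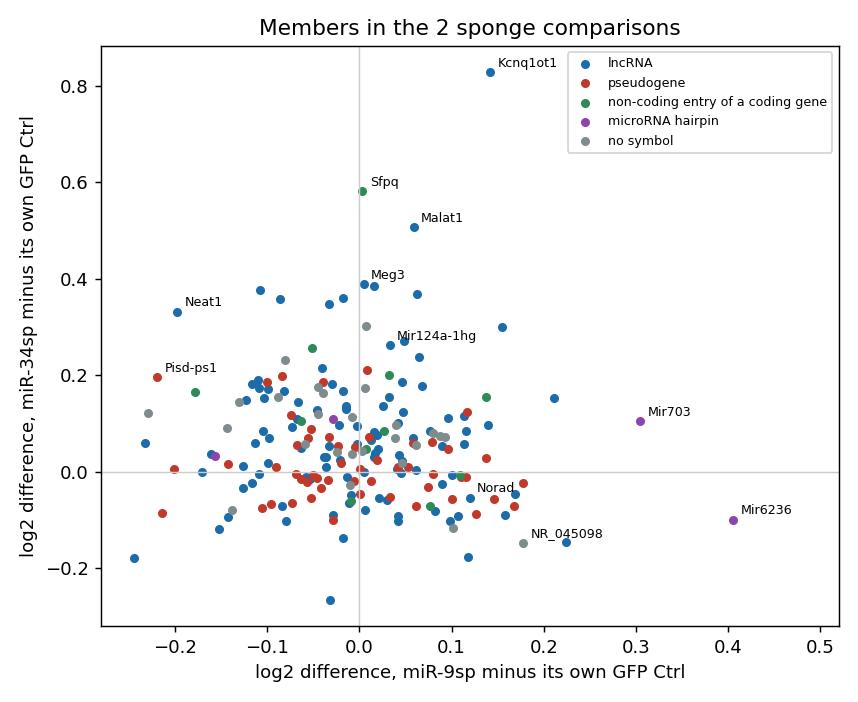
Log2 difference of each of the 199 members tested for both sponges in miR-34sp-injected mice (vertical axis) and in miR-9sp-injected mice (horizontal axis), each against its own GFP Ctrl mice, coloured by class. No point was called by edgeR in either comparison, and Kcnq1ot1 at 0.83, Sfpq at 0.58 and Malat1 at 0.51 lie highest.

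Members holding the target octamers shown above were read against their own sponge. For the 4 members with the miR-9 octamer, log2 differences in miR-9sp-injected mice ran from -0.11 (Sox2ot) to 0.11 (1700113A16Rik), with 2 of the 4 above 0. Sox2ot, a lncRNA that overlaps the stem cell factor gene Sox2, had 47.6, 47.9 and 47.9 CPM against 54.1, 47.6 and 55.3 CPM. For the 4 members with the miR-34 octamer, log2 differences in miR-34sp-injected mice ran from -0.18 (Dubr) to 0.17 (Gm10516), with a median of -0.02. Members with none of the shorter heptamers had medians of 0.01 for miR-9 (48 members, heptamer ACCAAAG) and 0.06 for miR-34 (44 members, heptamer CACTGCC). The sponges were expressed in neurons while whole hippocampus was sequenced, so that these values average over cells with and without a sponge.

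The effects of the sponges were compared in 1 model over all 12 mice. The difference between the miR-9sp and the miR-34sp effect was called for 0 of 200 members and for 0 of 13189 entries (0%, edgeR). DESeq2 called 0 members and edgeR without a filter on low counts 1, Neat1. At an unadjusted p under 0.05 it was positive for 3 members and negative for 18, against 3.43% and 2.74% of all entries. The smallest p belonged to A830082N09Rik (log2 difference of the effects -0.27), 4933439C10Rik (-0.45) and NR_045098 (0.33), with adjusted p = 0.717 in each case (edgeR).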

How the data were processed

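RNA was extracted from whole hippocampi of 12 mice, enriched for poly(A), amplified with the NuGEN Ovation kit and sequenced as single-end reads of 50 bases. The authors deposited raw read counts per RefSeq entry with the entry's length, 1 table per mouse. STAR and the mm10 build are named in the submitters' processing notes, whereas the study's methods name mm9. The counting tool and the treatment of shared reads are not given in the sources used here. Files held 32850 entries, and 98.7% matched a symbol in the reference tables (174 of the 200 members).

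Counts were tested with edgeR 4.0.16 (TMM scaling, quasi-likelihood test, Benjamini-Hochberg adjustment over all entries) after removing entries with a mean count of 10 or less in the mice compared. SE is the log2 difference divided by the root of F. DESeq2 1.42.0 and other alternatives are described in the closing section. The script was tested on simulated data. CPM used total counts, and intervals from counts cover counting error only. Labels name separate mice as replicates, so p-values measure the spread between mice.

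Members, classes, lists and tests were chosen with earlier results of these data known. Named members were the 10 most abundant lncRNAs, the most abundant structural or hairpin entries, the 5 largest called differences without overlap in each direction and comparison, the 3 smallest p per sponge, the 3 highest CVs (mean count above 100) and members of fixed lists (imprinted cluster, nuclear bodies, microRNA and snoRNA hosts, X inactivation, neighbours of developmental genes). Others were named after their values were seen. Target octamers were searched in GENCODE M1 transcripts on NCBIM37 within 20% of the deposited length.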

Additional observations from a re-analysis of the deposited data

How the results depend on the processing

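No paired analysis was possible because mouse numbers mark single animals and the groups compared share fewer than 2 numbers. Between GFP Ctrl groups, 26 to 33 members were called higher and 53 to 61 lower when each mouse was left out. With total counts without NR_046233, an alternative chosen after seeing the data, as was leaving out the 2 mice high in NR_046233, 52 were higher and 52 lower. For miR-9sp, edgeR called 0 members with each mouse left out and also without those 2 mice, and the study's criterion (unadjusted p under 0.05, 1.2-fold, on mean-scaled counts) passed 1, Mir703. For miR-34sp, edgeR called 0 members with each mouse left out, DESeq2 called 1, edgeR without a filter on low counts 8 and the study's criterion 6. The difference between the sponge effects gave 0 members with each mouse left out and 1, Neat1, without the filter. The cause of these changes was not tested. Of 23 named members called between GFP Ctrl groups, 7 lost the call in at least 1 alternative (Malat1, Neat1, Kcnq1ot1, the shorter Meg3 entry, Dlx6os1, Ftx and Snhg20) and none reversed. Ranking by median CPM or by GFP Ctrl mice kept 198 of the 200 members, and ranking per kilobase 146. Median CVs were 5.76% to 6.43% for lncRNAs, 4.52% to 4.82% for pseudogenes and 8.88% to 9.77% for non-coding entries of coding genes with each mouse left out. With 3 mice per group, small differences in low entries were not detectable at this depth.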
